A study of Rattus rattus with 18 samples.

Results

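The levels of 8 microRNAs of the vessel wall were followed in rat brain tissue after transient middle cerebral artery occlusion (tMCAO). They were listed by name, with no threshold on their values, as miRNAs known from endothelial cells (rno-miR-126a-3p, rno-miR-126a-5p, rno-miR-221-3p, rno-miR-222-3p and rno-miR-222-5p) and from smooth muscle cells or pericytes (rno-miR-143-3p, rno-miR-145-5p and rno-miR-145-3p). All 8 were found among the 761 rat miRNAs on the arrays, and all 8 were among the 532 miRNAs that were detected on at least 3 arrays and tested. The prefix rno, for rat, is left out below. The 18 single-colour arrays held RNA of 9 male Sprague-Dawley rats: 3 were sham-operated, 3 underwent tMCAO, and 3 bear the label remote limb postconditioning (PostC). For tMCAO, a filament is pushed into the artery to block it and later pulled back, whereas sham-operated rats undergo the surgery alone. The labels do not say whether the PostC rats also underwent tMCAO. The ages of these rats are given in neither the labels nor the methods. For tMCAO rats the methods name more than 1 time of killing after reperfusion, without saying which of them applies to the arrays. Each rat contributed an array of core tissue and an array of the surrounding peri tissue. The sample labels call the core temporo-parietal cortex and the peri region striatum, whereas the methods give them the other way round, so only the words core and peri are used below.

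MicroRNAs are short RNAs that pair through their seed, here bases 2 to 8, with messenger RNAs and lower their translation or stability. miR-126 lies in an intron of Egfl7, a gene of endothelial cells, and its 3p strand is known to sustain vascular endothelial growth factor signalling by repressing Spred1 and Pik3r2. Its other strand, miR-126a-5p, is known to promote endothelial proliferation through Dlk1. miR-143 and miR-145 are transcribed together and are abundant in vascular smooth muscle, where miR-145-5p favours the contractile state by repressing Klf5. miR-221 and miR-222 also come from 1 shared transcript, repress Kit and Cdkn1b, and are best known for opposite effects on proliferation in endothelium and smooth muscle.

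The target sequences of the 8 array probes are shown first, since they decide which miRNAs the probes can tell apart; they run 5′ to 3′ and the seed is in capitals.
miR-126a-3p: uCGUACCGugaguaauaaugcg
miR-126a-5p: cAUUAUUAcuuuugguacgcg
miR-143-3p: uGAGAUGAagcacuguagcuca
miR-145-5p: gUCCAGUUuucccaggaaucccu
miR-145-3p: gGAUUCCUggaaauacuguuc
miR-221-3p: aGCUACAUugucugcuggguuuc
miR-222-3p: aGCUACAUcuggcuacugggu
miR-222-5p: gGCUCAGUagccaguguagau

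miR-221-3p and miR-222-3p share the seed GCUACAU, and no other pair among the 8 shares one. No further probe of the array carries a seed of any of the 8. The sequences of miR-221-3p and miR-222-3p differ by 6 edits in all, and no probe on the array lies within 3 edits of a member. The 2 strands of miR-126a, of miR-145 and of miR-222 are partly complementary, with a run of 10 bases in each pair. miR-126a-5p is complementary to miR-126b over 17 bases.

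The arrays differed in brightness. The median spot of a miRNA probe lay between 49.06 and 260.8 units, and 188 to 605 of the 761 miRNAs passed the detection limit of an array, which was set from its empty spots. The correlation of an array with the others of its group over the tested miRNAs was on average 0.85 to 0.977, lowest for the third PostC core array. Levels are given below as normalized log2 intensities, on which 1 unit is a doubling, and changes are relative to the other miRNAs of the array. Levels of different miRNAs were not compared, since probes differ in affinity. In tissue pieces, fewer cells of a type and less RNA per cell cannot be told apart.

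Of the 8, 5 were bright: miR-126a-3p, miR-143-3p, miR-145-5p, miR-221-3p and miR-222-3p were detected on all 18 arrays, with raw signals from 1046 units for miR-143-3p up to 14810 units for miR-126a-3p. miR-145-3p was detected on 10 arrays, miR-222-5p on 5 and miR-126a-5p on 4. The pooled SD within groups was 0.128 for miR-222-5p, 0.144 for miR-221-3p, 0.16 for miR-145-3p and 0.176 for miR-222-3p. It was 0.426 for miR-126a-3p, 0.467 for miR-145-5p, 0.591 for miR-143-3p and 0.869 for miR-126a-5p, against a median of 0.433 over the 532 tested miRNAs.

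**Figure D1:**
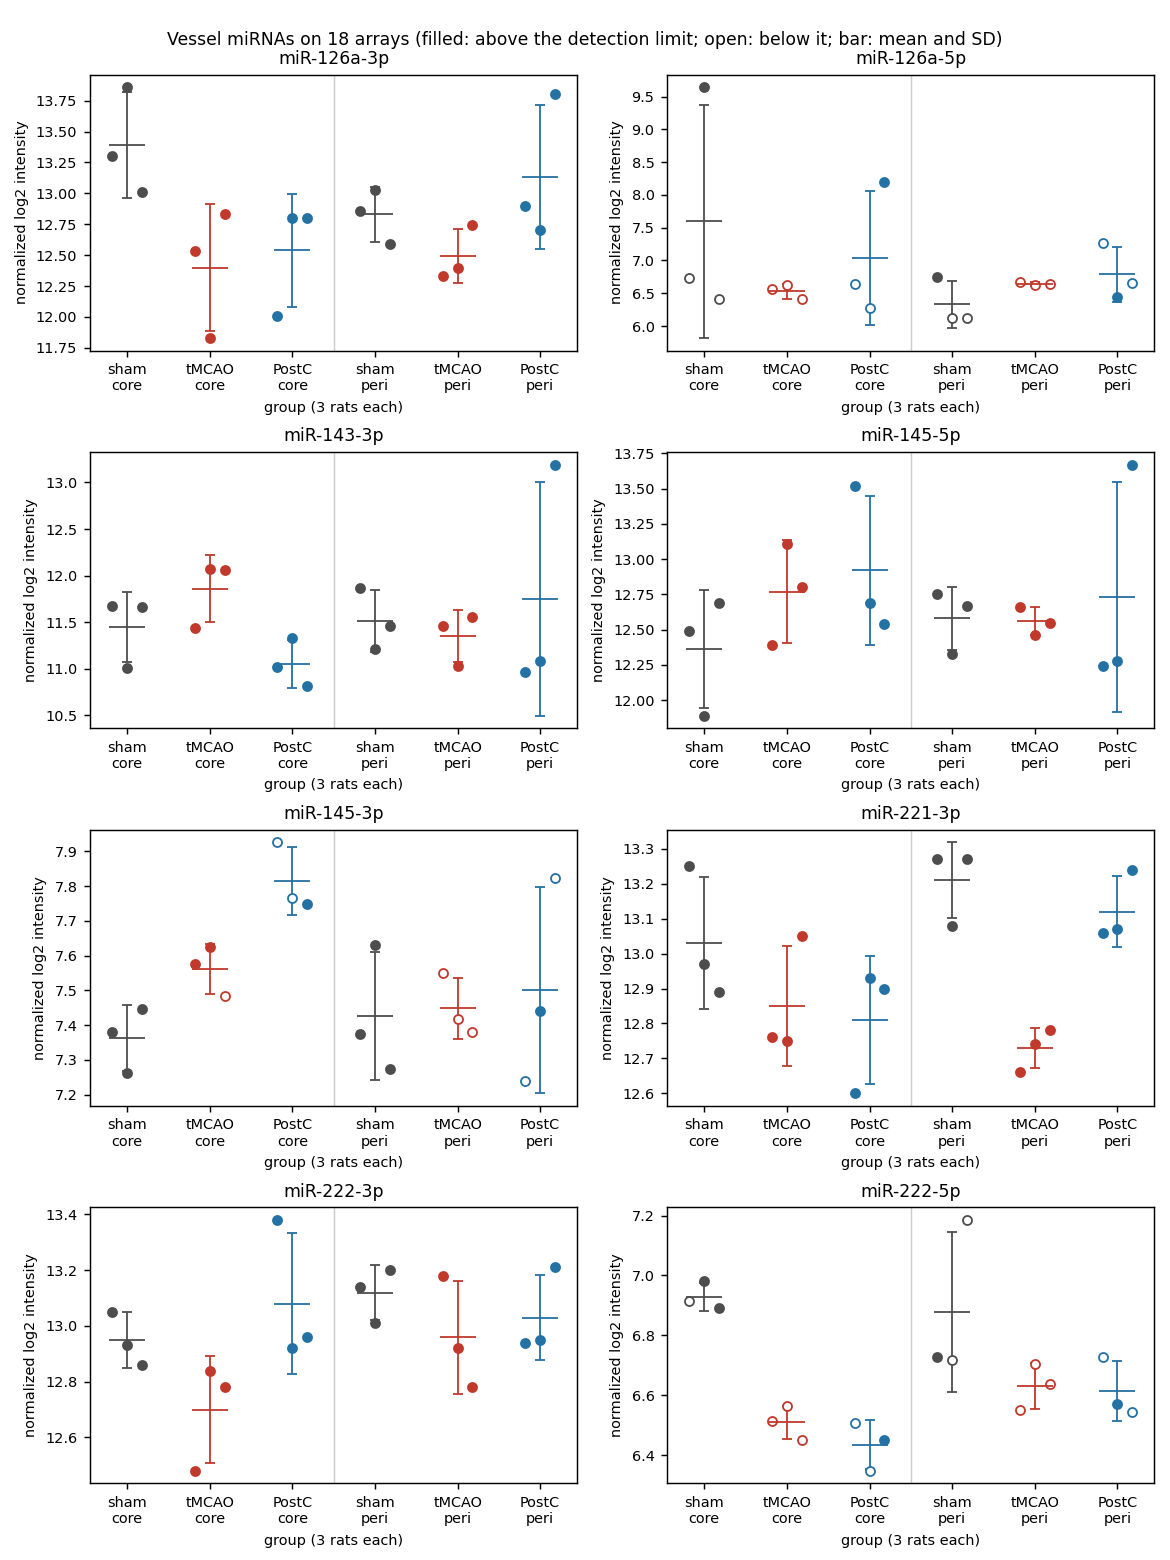
Normalized log2 intensity of the 8 vessel miRNAs in the 6 groups, with 1 point for each rat, the mean as a horizontal bar and the SD of 3 rats as a vertical bar. Filled points passed the detection limit of their array and open points did not. The sham core arrays of miR-126a-3p, between 13.01 and 13.86, lie above the 3 tMCAO core arrays.

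None of the 8 miRNAs passed an adjusted p of 0.05 in any of the 15 comparisons (limma, Benjamini-Hochberg adjustment over the 532 miRNAs). Beside these counts of 0, limma called 11.8% of the tested miRNAs for tMCAO against sham when both regions of a rat were averaged (the rat means), 3.38% in core alone and 0.564% in peri alone. At an unadjusted p under 0.05, limma gave 2 of the 8 for rat means, 2 for core and 1 for peri, where 31.4%, 21.8% and 15.2% of all tested miRNAs passed. One of the 2 in the rat means and in core was miR-222-5p, which entered the tests only through its sham arrays, where it was highest. Without adjustment the methods' t-test gave 3, 2 and 1 of the 8, beside 29.1%, 25.8% and 21.6%, and none after it. The tMCAO and sham rats did not overlap for 4 of the 8 miRNAs by rat means, 4 in core and 2 in peri, beside 41%, 41% and 31.6% of all tested miRNAs. These shares of members lie near or below those over all miRNAs, except for the 3 of 8 by the methods' t-test in the rat means and the 4 of 8 without overlap in the rat means and in core, which exceed 29.1% and 41% by less than 1 member.

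PostC was compared with the same sham rats, so that both sets of comparisons share their controls. For PostC against sham, adjusted calls made up 0.188% of the tested miRNAs for the rat means and 0% for either region, with none of the 8 among them. Unadjusted, limma gave 1, 2 and 1 of the 8, beside 14.1%, 16.9% and 2.63% over all tested miRNAs, and the methods' t-test gave 2, 2 and 0, beside 9.02%, 9.4% and 1.69%. Both times these 2 were miR-145-3p and miR-222-5p, each above the detection limit on 1 of 3 PostC arrays in either region, so that little rests on these counts. The PostC and sham rats did not overlap for 2, 3 and 0 members, beside 18.2%, 22% and 5.08%. For PostC against tMCAO, 5.64%, 2.26% and 0% of the tested miRNAs were called for rat means, core and peri, again with none of the 8. Unadjusted, limma gave 0, 1 and 0 of the 8, beside 18.4%, 13.3% and 5.83%, and the methods' t-test gave 1, 2 and 1, beside 17.7%, 10.3% and 3.38%. The groups did not overlap for 2, 3 and 1 members, beside 26.1%, 18.6% and 7.89%.

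**Figure D2:**
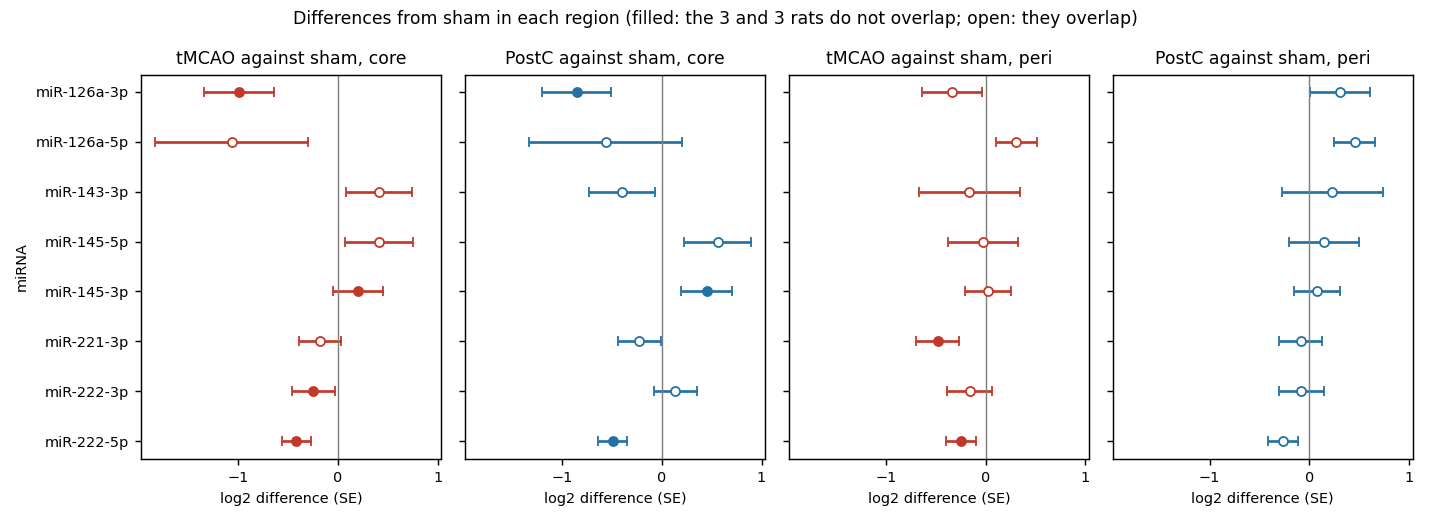
Log2 differences of the 8 miRNAs from sham in core and in peri, with the standard error of the fit as a horizontal bar, for tMCAO and for PostC. Filled points mark miRNAs whose 3 and 3 rats did not overlap. The means of miR-126a-3p lie 0.99 below sham in the tMCAO core and 0.85 below in the PostC core, and those of the smooth muscle miRNAs scatter on both sides of 0. Of the filled points, that of miR-145-3p in the tMCAO core turned negative under other scalings, and that of miR-222-5p in the tMCAO peri region turned positive under median scaling.

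miR-126a-3p, the main endothelial strand, had its highest level in the sham core. It measured 13.30, 13.86 and 13.01 in sham core 1, 2 and 3, and 12.53, 11.83 and 12.83 in tMCAO core 1, 2 and 3. Every sham core array stood above every tMCAO core array. The group means were 13.39 ± 0.43 (SD, n = 3) and 12.40 ± 0.51 (SD, n = 3). The tMCAO core mean was lower by 0.99 (log2 difference -0.99, SE 0.348), a ratio of 1.99 in favour of sham, with an unadjusted p of 0.0171 and an adjusted p of 0.142 in limma. On the deposited linear scale, the authors' normalized intensities averaged 11011 ± 2309.6 units in the sham core and 5801.6 ± 1880 in the tMCAO core (SD, n = 3). miR-126a-3p is 1 of the 15 miRNAs that the study selected on these same arrays for its heat map, so its values are no independent evidence of a direction.

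In the PostC core miR-126a-3p measured 12.01, 12.80 and 12.80, again below each sham core array. The log2 difference from sham was -0.85 (SE 0.348), with an unadjusted p of 0.034 and an adjusted p of 0.27 in limma. PostC and tMCAO cores overlapped, and their means of 12.54 ± 0.46 and 12.40 ± 0.51 (SD, n = 3) lay within 1 SD of each other. In peri the order was another one. The sham peri arrays read 12.86, 13.03 and 12.59, the tMCAO peri arrays 12.33, 12.40 and 12.74, and the PostC peri arrays 12.90, 12.70 and 13.80. The 3 peri groups overlapped, and the third PostC rat was the highest. The log2 difference of tMCAO from sham in peri was -0.34, and -1.18 under median scaling (adjusted p = 0.0356 in limma). The median over all tested miRNAs was then -0.423, and the core difference of tMCAO from sham -0.85. In the mean of both regions of each rat, the tMCAO rats lay between 12.12 and 12.78 and the sham rats between 12.80 and 13.44. That difference was -0.66 (SE 0.266), with an unadjusted p of 0.0306 and an adjusted p of 0.112 in limma, and became -1.02 under median scaling (adjusted p = 0.0179). From the highest to the lowest group mean the order of miR-126a-3p was sham core, PostC peri, sham peri, PostC core, tMCAO peri and tMCAO core, and neighbours in this order overlapped at every step.

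The 2 markers of oligodendrocytes were also highest in the sham core. miR-338-3p, which oligodendrocytes express as they mature, lay between 10.70 and 13.33 in the sham core, between 7.50 and 9.15 in the tMCAO core and between 7.35 and 10.24 in the PostC core. miR-219a-5p, the other marker, lay between 8.08 and 11.14 in the sham core and was below the detection limit on all 3 tMCAO core arrays. The mean log2 level of both markers was 9.39 to 12.23 in the sham core arrays, 7.25 to 8.01 in the tMCAO core and 7.24 to 9.00 in the PostC core. In limma neither passed, with an adjusted p of 0.0903 for miR-338-3p and 0.106 for miR-219a-5p in the tMCAO core. Over the 18 arrays miR-338-3p was 1 of the 3 miRNAs most like miR-126a-3p. The part of tissue composition in the miR-126a-3p values was not tested.

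The other strand, miR-126a-5p, stayed near background. It passed the detection limit on 1 array each of sham core, sham peri, PostC core and PostC peri, and on none of the 6 tMCAO arrays. The level was 9.65 on sham core 2, the array with the highest miR-126a-3p, and 8.20 on PostC core 3, and it lay between 6.12 and 7.26 on the other arrays. These 2 arrays carried raw signals of 646.5 and 443 units. No fold against the tMCAO core is given, since only 1 of the 3 sham core arrays passed its limit. The sham and tMCAO core groups overlapped, with an adjusted p of 0.409 in limma. For PostC against sham in peri the log2 difference was 0.45 (SE 0.207) with an unadjusted p of 0.0472 and an adjusted p of 0.991 in limma, from groups that overlapped and in which 1 array each was above the limit. It was 1.88 under plain background subtraction and 0.22 without the first PostC rat.

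The smooth muscle strand miR-143-3p showed no shared shift in tMCAO. It read 11.67, 11.01 and 11.66 in the sham core and 11.44, 12.07 and 12.06 in the tMCAO core, where the groups overlapped. In the PostC core it read 11.02, 11.33 and 10.81. All 3 PostC core arrays were below the 3 tMCAO core arrays. This log2 difference of PostC from tMCAO was -0.80 (SE 0.331), a ratio of 1.75, with an unadjusted p of 0.0351 and an adjusted p of 0.315 in limma. In peri the sham arrays read 11.87, 11.21 and 11.46 and the tMCAO arrays 11.46, 11.03 and 11.56. The PostC peri arrays read 10.97, 11.08 and 13.19. The last of these, from the third PostC rat, was the highest miR-143-3p level of all 18 arrays and alone gave this group its SD of 1.25.

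miR-145-5p, the strand that acts on Klf5, overlapped between the groups of every core and peri comparison. It read 12.49, 11.89 and 12.69 in the sham core, 12.39, 13.11 and 12.80 in the tMCAO core and 13.52, 12.69 and 12.54 in the PostC core. The lowest value of the 18 arrays was that of sham core 2, which also had the highest miR-126a-3p. In peri the sham arrays lay between 12.33 and 12.75 and the tMCAO arrays between 12.46 and 12.66. The PostC peri arrays read 12.24, 12.28 and 13.67, so that the third PostC rat was the highest of all 18 arrays here as well. Averaged over the regions, the means of miR-143-3p and miR-145-5p were 0.12 and 0.19 above sham in tMCAO on the log2 scale. Under median scaling they were -0.40 and -0.18, beside a median of -0.211 over all tested miRNAs, so that relative to this median they were at -0.18 and 0.03.

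miR-145-3p, the rarer strand, was highest in the PostC core. There it read 7.93, 7.77 and 7.75, against 7.58, 7.62 and 7.49 in the tMCAO core and 7.38, 7.26 and 7.45 in the sham core. The 3 core groups did not overlap. Only 1 of the 3 PostC core arrays was above its own detection limit, compared with all 3 sham core arrays, since the limits of the arrays differed. The adjusted p in limma was 0.383 for PostC against sham and 0.751 for PostC against tMCAO in core. In peri the levels of all 3 groups overlapped, between 7.24 and 7.82. The difference between tMCAO and sham in core turned negative under plain background subtraction, median scaling and in the deposited intensities.

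miR-221-3p, which represses Kit, was steady over the arrays, within a range of 0.67 on the log2 scale. It read 13.27, 13.08 and 13.27 in sham peri, 12.66, 12.74 and 12.78 in tMCAO peri and 13.06, 13.07 and 13.24 in PostC peri. The tMCAO peri arrays lay below both other peri groups. The log2 difference of tMCAO from sham in peri was -0.48 (SE 0.215), a ratio of 1.40, with an unadjusted p of 0.0439 and an adjusted p of 0.303 in limma. Under median scaling this difference was -1.31 (adjusted p = 0.0218), beside a median of -0.423 over all tested miRNAs. For PostC against tMCAO in peri the adjusted p was 0.725. In core the sham arrays read 13.25, 12.97 and 12.89, the tMCAO arrays 12.76, 12.75 and 13.05 and the PostC arrays 12.60, 12.93 and 12.90, with overlap between all 3 groups. In the rat means, the tMCAO rats (12.79 on average) lay below the sham rats (13.12) without overlap, with an adjusted p of 0.173 in limma and of 0.0286 under median scaling.

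miR-222-3p, which shares the seed of miR-221-3p, had its lowest mean level in the tMCAO core. It read 13.05, 12.93 and 12.86 in the sham core, 12.48, 12.84 and 12.78 in the tMCAO core and 13.38, 12.92 and 12.96 in the PostC core. The tMCAO core arrays lay below those of both other core groups, with an adjusted p of 0.499 against sham and 0.546 for PostC against tMCAO in limma. In peri the tMCAO arrays read 13.18, 12.92 and 12.78 and overlapped with sham (13.14, 13.01 and 13.20) and PostC (12.94, 12.95 and 13.21). Thus the strand without overlap between tMCAO and sham was miR-221-3p in peri and miR-222-3p in core. This contrast depends on the scaling. Under median scaling the difference of miR-222-3p from sham was -0.08 in core (adjusted p = 0.927 in limma) and -0.98 in peri (adjusted p = 0.038). The medians over all tested miRNAs were then -0.047 and -0.423.

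miR-222-5p was dim throughout. It was detected on 2 of 3 sham core arrays, 1 of 3 sham peri arrays, 1 of 3 arrays each of PostC core and PostC peri, and on none of the 6 tMCAO arrays. Its normalized values were 6.91, 6.98 and 6.89 in the sham core, 6.51, 6.56 and 6.45 in the tMCAO core and 6.51, 6.35 and 6.45 in the PostC core. The sham core arrays were the highest of core without overlap. With 3 detected sham arrays and 2 detected PostC arrays, it entered the tests only through sham, where it was highest, and its p values against sham are not used. Because no tMCAO array was above background, and the detection limits were as high as the sham signals, no fold can be given. The size of the difference of PostC from sham is not settled, since most of these sham and PostC arrays were below the limit. In the rat means it was -0.38, against -1.12 under plain background subtraction and -0.02 in the deposited intensities. In the deposited table, 1 value of miR-222-5p out of 18, that of sham peri 3 with 54.62 units, was above 50 units.

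Each rat also served as its own comparison of core with peri. No member passed in sham, tMCAO or PostC rats with an adjusted p of 0.05 in limma, beside 0%, 0.94% and 0% of all tested miRNAs. At an unadjusted p under 0.05 the counts were 0, 0 and 1 of the 8, beside 5.45%, 10.9% and 9.77%, and the methods' t-test gave none, beside 9.21%, 10.7% and 3.95%. The sign was the same in all 3 rats for 3 members in sham, 4 in tMCAO and 2 in PostC, beside 42.1%, 43.6% and 21.2% of all tested miRNAs. miR-126a-3p was higher in core than in peri of the same sham rat by 0.44, 0.83 and 0.43 (mean 0.57 on the log2 scale, unadjusted p 0.0553 and adjusted p 0.841 in limma), with a mean of 0.31 under median scaling. In tMCAO rats the differences were 0.20, -0.57 and 0.09 (mean -0.09, and 0.65 under median scaling), and in PostC rats -0.89, 0.10 and -0.99. The mean in PostC rats was -0.59 (SE 0.257), with an unadjusted p of 0.0459 and an adjusted p of 0.485 in limma, and without the second or the third of these rats it was -0.94 (adjusted p = 0.0994) or -0.40 (adjusted p = 0.468).

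The 3 tests of whether core minus peri differed between treatments called 0% of the 532 miRNAs each, and none of the 8. Unadjusted, limma gave 0 of the 8 for tMCAO against sham, 1 for PostC against sham and 0 for PostC against tMCAO, beside 8.65%, 10.5% and 5.64% of all tested miRNAs, and the methods' t-test gave 0, 1 and 1, beside 16%, 4.32% and 4.7%. The rats did not overlap for 2, 1 and 1 members, beside 28.9%, 15% and 9.96%. For miR-126a-3p the core-minus-peri value of PostC rats was lower than that of sham rats by 1.16 (log2 difference -1.16, SE 0.364), with an unadjusted p of 0.0109 and an adjusted p of 0.309 in limma. It was -0.75 under median scaling. All 3 sham rats had a positive value above that of every PostC rat. Between tMCAO and sham rats the core-minus-peri values of miR-126a-3p did not overlap either, with an adjusted p of 0.627, and the sign of that difference turned under median scaling.

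**Figure D3:**
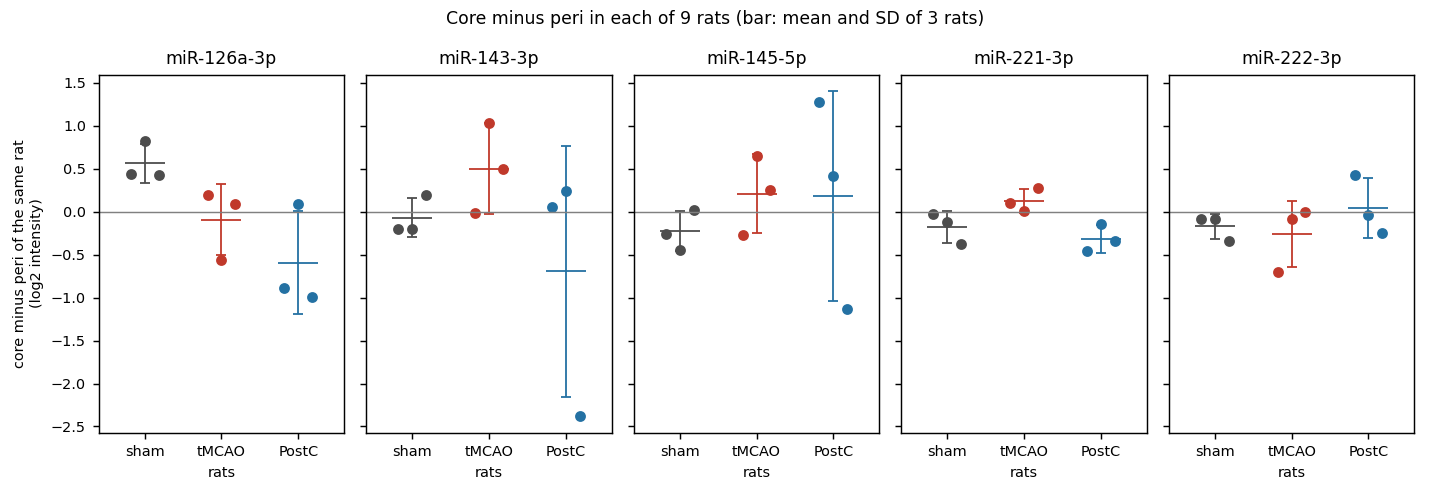
Core minus peri of the same rat, in log2 intensity, for the 5 miRNAs detected on all arrays, with 1 point for each rat and the mean and SD of 3 rats as bars. The sham rats are above 0 for miR-126a-3p, between 0.43 and 0.83, and 2 of the 3 PostC rats are near -1 (-0.89 and -0.99). For miR-143-3p the third PostC rat stands apart at -2.38.

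Differences between 2 strands on the same array do not depend on a scaling of the whole array. The pairs here and in the next paragraph were chosen after their values were seen. How many of all possible pairs would not overlap was not computed. Of single miRNAs, 41% did not overlap between tMCAO and sham core and 22% between PostC and sham core. Lack of overlap alone therefore carries little weight. Within an array the log2 value of miR-126a-3p minus that of miR-145-5p was 0.81, 1.97 and 0.32 in the sham core. It was 0.14, -1.28 and 0.03 in the tMCAO core and -1.51, 0.10 and 0.26 in the PostC core. The mean shifted by -1.41 from sham to tMCAO and by -1.42 from sham to PostC, without overlap of the arrays in either case. Without PostC core 1 the latter was -0.85. The shifts were -1.37 and -1.39 in the raw signals, also without overlap. Against miR-143-3p, the value of miR-126a-3p was 1.63, 2.85 and 1.36 higher in the sham core and 1.09, -0.23 and 0.77 higher in the tMCAO core, a shift of the mean by -1.40. These arrays did not overlap after normalization but did in the raw signals, where the shift was -1.20. The PostC core arrays, at 0.99, 1.47 and 1.99, overlapped with the sham core, and the shift of -0.46 was -0.01 without sham core 2 and -0.75 without sham core 3. Against miR-221-3p, also endothelial, miR-126a-3p was 0.06, 0.89 and 0.12 higher in the sham core. Its mean shifted by -0.81 in the tMCAO core and by -0.63 in the PostC core, each without overlap, and the latter was -0.36 without sham core 2. In each of these contrasts sham core 2 was the highest sham core array and tMCAO core 2 the lowest tMCAO core array. Single arrays thus set much of the tMCAO shifts as well. The sham core stood above the tMCAO core for miR-126a-3p minus a smooth muscle strand and minus an endothelial strand. These contrasts share the same miR-126a-3p values, which alone did not overlap between the 2 groups. Their likeness is therefore no separate evidence. In peri no pair with miR-126a-3p separated tMCAO from sham. Such values show unequal change of 2 miRNAs, not which of them changed.

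**Figure D4:**
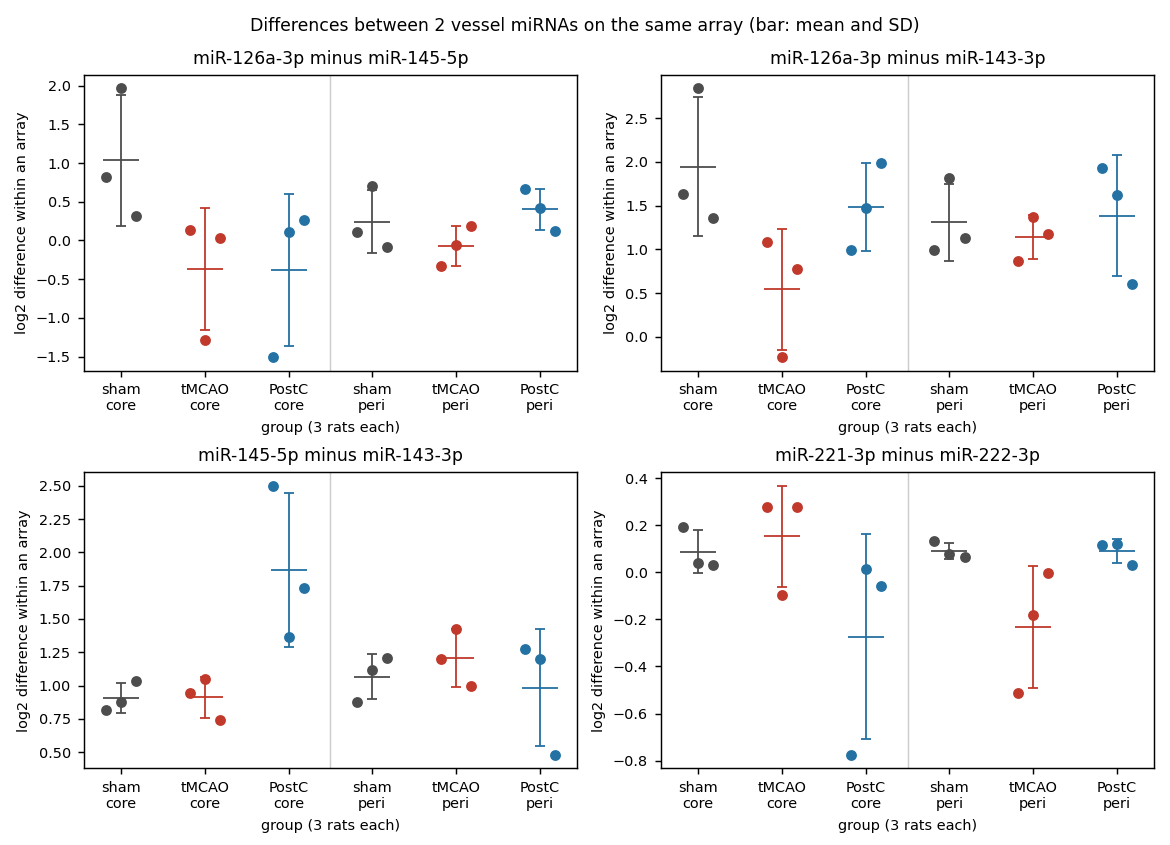
Log2 difference between 2 vessel miRNAs on the same array in the 6 groups, with 1 point for each rat and the mean and SD of 3 rats as bars. The 3 sham core arrays lie above the tMCAO core arrays for miR-126a-3p minus miR-145-5p and minus miR-143-3p, and the PostC core arrays stand alone above 1.3 for miR-145-5p minus miR-143-3p among the core groups.

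The difference between the 2 smooth muscle miRNAs of 1 transcript was widest in the PostC core. There miR-145-5p minus miR-143-3p was 2.50, 1.37 and 1.73, against 0.82 to 1.04 in the sham core and 0.74 to 1.05 in the tMCAO core. The PostC mean of 1.87 lay 0.96 above sham and 0.95 above tMCAO, without overlap, and the deposited intensities gave 0.98 and 0.97. PostC core 1, with 2.50, set a large part of both shifts. In the raw signals the shift from sham was 1.02 without overlap, and that from tMCAO was 0.86 with overlap. For miR-221-3p minus miR-222-3p, tMCAO peri arrays lay below sham peri arrays (-0.23 against 0.09 on average) and PostC core arrays below sham core arrays (-0.27 against 0.09), each without overlap. The first of these shifts was -0.32, and -0.18 without tMCAO peri 1. PostC core 1 set much of the other, with -0.78 against 0.02 and -0.06 in the other 2 rats, and the shift of -0.36 was -0.11 without it.

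Over the 18 arrays, Pearson's r between normalized log2 intensities is given as a description, since the arrays share rats, groups and the normalization. It was 0.64 for miR-143-3p and miR-145-5p, and 0.83 after each group was centred on its mean. Without the array PostC peri 3, the highest for both, it fell to 0.38. The strands of miR-145 had an r of 0.69, 0.66 after centring and 0.62 without that array. For miR-221-3p and miR-222-3p r was 0.23 (-0.03 after centring), although both varied little and the SD of their difference was 0.26. miR-126a-3p and miR-221-3p, both endothelial, had an r of 0.62 (0.55 after centring and 0.56 without PostC peri 3). With miR-222-3p, also endothelial, miR-126a-3p had an r of 0.03 (-0.26 after centring). miR-222-3p and the smooth muscle strand miR-145-5p had one of 0.47 (0.715 after centring), so r did not follow the cell type. For miR-126a-3p and miR-145-5p it was -0.24, -0.08 after centring and -0.74 without PostC peri 3, so that its size rests on that array.

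**Figure D5:**
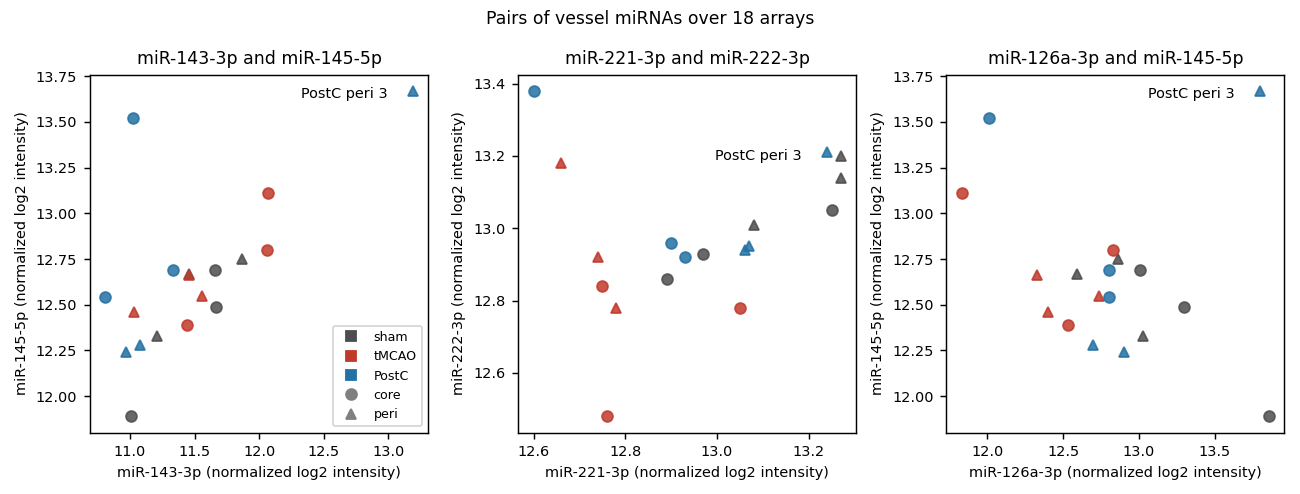
Normalized log2 intensities of 3 pairs of vessel miRNAs over the 18 arrays (circles, core; triangles, peri; grey, sham; red, tMCAO; blue, PostC). PostC peri 3 lies at the upper end for miR-143-3p (13.19) and miR-145-5p (13.67), and for miR-126a-3p and miR-145-5p r is -0.24 with this array and -0.74 without it.

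Other miRNAs known from vessels gave no common direction in tMCAO. Of 9 further endothelial miRNAs, 8 were tested, and 3 were higher and 5 lower in the rat means, with a median log2 difference of -0.02, beside -0.02 over all 532 miRNAs and -0.27 over the 8 members. At an unadjusted p under 0.05 stood 3 of the 8 and after adjustment 1, beside 31.4% and 11.8% of all tested miRNAs. The one was miR-10a-5p of the Hox clusters, with mean levels of 7.11 in the tMCAO core and 7.10 in tMCAO peri against 6.46 and 6.19 in sham. It was detected on 3 tMCAO arrays and 1 sham array, so it entered the test only through tMCAO, where it was high, and its p value is not used. The others were miR-27a-3p (-1.21, adjusted p 0.0765) and miR-92a-3p (0.67, adjusted p 0.126). Of 7 further miRNAs of mural cells, 3 were higher and 4 lower, with a median of -0.28, and 4 of the 7 had an unadjusted and 1 an adjusted p under 0.05. miR-1-3p, best known from striated and smooth muscle, passed with an adjusted p of 0.0103 in limma, and 0.0599 without the second tMCAO rat. It was detected on all 6 sham arrays (means 8.01 in core and 8.19 in peri) and on none of the 6 tMCAO arrays (means 6.95 and 7.01). The detection limits differed, from 49.06 to 171 units on sham arrays and from 77.38 to 345.5 on tMCAO arrays. In the PostC core the mean of miR-1-3p was 8.52 although only 1 array detected it. Detection alone therefore does not show a loss. miR-133a-3p (0.65), miR-199a-3p (0.67) and miR-204-5p (-1.06) had unadjusted p values under 0.05 and adjusted p values of 0.0811, 0.0693 and 0.0731. Of the remaining strands of the members, miR-221-5p was tested (0.14, adjusted p 0.677), and miR-143-5p was detected on 0 arrays. miR-126b, a separate miRNA, was detected on 1 array.

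The tissue label was checked against markers of other cells. All 5 neuronal miRNAs, among them miR-124-3p, were detected on every array, and their mean log2 level per array was 13.70 to 13.82 in the sham core and 12.33 to 13.44 in the tMCAO core. The 5 went both ways, with core differences of -2.55 for miR-137-3p, -1.89 for miR-9a-5p and -0.21 for miR-124-3p and of 0.34 for miR-128-3p and 0.41 for miR-138-5p, none past the adjusted threshold in core. In the rat means miR-137-3p and miR-9a-5p passed with adjusted p values of 0.0184 and 0.035 in limma, and lost the call without 2 and 6 of the 9 rats in turn (adjusted p up to 0.0653 and 0.0998), among them the second tMCAO and the second sham rat for both. Of 5 leukocyte miRNAs 4 were tested, and miR-150-5p had a core difference of 1.55 in tMCAO (adjusted p = 0.0318 in limma). That call was lost without any 1 of the 3 sham rats and without the first or the second tMCAO rat (adjusted p up to 0.132). Like miR-126a-3p, miR-150-5p is among the miRNAs that the study selected on these same arrays. miR-155-5p had a mean level of 7.81 in the tMCAO core, where 2 of 3 arrays detected it, and was not well above background on any sham array. Since it entered the test only through these and 1 PostC core array, its p value is not used. The remaining 2 tested are given by level alone. miR-223-3p averaged 8.29 in the tMCAO core, with 2 of 3 arrays detected, and 6.93 in the sham core, with 1 detected. miR-142-5p averaged 7.055 in the sham core, with 2 of 3 arrays detected, and was detected on no tMCAO array. Each entered the tests only through the treatment where it was highest, tMCAO for miR-223-3p and sham for miR-142-5p, so their p values are not used. The mean level of the 5 was 7.48 to 7.90 in the sham core and 8.03 to 8.59 in the tMCAO core. Of the red blood cell miRNAs, miR-486 rose in the rat means by 1.39 (adjusted p = 0.00951 in limma, and 0.0599 without the second tMCAO rat), miR-451-5p differed by 0.14 (adjusted p = 0.809), and miR-144-3p was not detected on any array. In peri, miR-486 was detected on 1 sham array and on no tMCAO array. The size of its rise therefore rests partly on values below the limit. The part of these cells in the values of the vessel miRNAs was not tested.

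The miRNAs whose normalized log2 intensity most resembled that of a member over the 18 arrays were named for the 6 members detected on at least 9 arrays, among 531 other miRNAs. For miR-126a-3p they were miR-30a-5p (r = 0.94), miR-338-3p (0.88) and miR-15a-5p (0.88). For miR-143-3p they were miR-93-5p (0.89), miR-106b-5p (0.83) and miR-107-5p (0.81), and for miR-145-5p miR-140-3p (0.87), miR-324-5p (0.84) and miR-133a-3p (0.84). miR-145-3p was most like miR-450b-3p (0.81), followed by miR-455-3p and miR-145-5p (0.69 each). For miR-221-3p the closest were miR-652-3p (0.81), miR-22-5p (0.71) and miR-27b-3p (0.68), and for miR-222-3p miR-127-3p (0.90), miR-337-5p (0.69) and miR-124-3p (0.67). Thus miR-145-3p was the one member with another of the 8 among its 3 closest miRNAs.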

How the data were processed

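The authors deposited unnormalized spot intensities digitized from the scan, without a local background, and separately their own normalized linear intensities, which they obtained by subtracting background and applying a locally weighted regression. How that table combines replicate spots is not given in the sources used here. The methods name Trizol and the labels a miRNeasy kit for RNA extraction. No slide, scan or other batch is named, and none could be tested. The highest correlation between any 2 arrays was 0.9847, and no arrays were identical. The labels name the organism Rattus rattus and the strain Sprague Dawley. Genomic positions were not analysed here, and sequences are the probe targets in the array files.

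Background was modelled on the spot intensities by normexp with an offset of 50 and values were normalized by cyclic loess in limma 3.58.1 (R 4.3.3), with control spots at weight 0, before averaging the 4 replicate spots per probe. Detection required a signal 3 scaled median absolute deviations above the median of the 612 empty spots of the array. Where a probe missed it on every array of a group, no fold against that group is given. The tests covered 532 of 761 miRNAs, those with detection on 3 or more arrays.

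Each rat entered limma (lmFit, eBayes with a variance trend) with 1 value, the mean of both regions, core, peri, or core minus peri. All 9 rats shared 1 estimate of the spread, and p values were adjusted by Benjamini-Hochberg over 532 miRNAs. An exact permutation test of 3 against 3 rats reaches 0.1 at best and was not used. The same values also went through the methods' t-test (Student, with equal variances). The fit was tested on simulated data. Precision is limited by how few arrays there are and how bright they are.

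The 8 miRNAs, the lists of other vessel and cell miRNAs, the tests and the alternatives were chosen with earlier results of these data known. Values in the text followed a rule: all 8 members by their levels, a log2 difference with its test where the unadjusted p was under 0.05 (except miR-222-5p, tested only through its sham arrays), the 3 closest miRNAs of members detected on at least 9 arrays, and listed vessel miRNAs with an unadjusted p under 0.05 in tMCAO against sham. Some differences with a larger unadjusted p are given as well, outside this rule. Values within arrays were chosen after they were seen. The alternatives comprised background subtraction (floor 1 unit), quantile normalization, median scaling, the deposited intensities (floor 50 units), no filter, detection on all arrays, a detection limit based on the 25% dimmest miRNA spots, no variance trend, only the 2 groups compared, the rat number as a block, the methods' t-test, removal of a trend with GC content, a joint fit of both regions (rat as random block), and leaving out each of the 9 rats. Rat numbers were not treated as pairs across treatments. Deviations of same-numbered rats from their group means correlated between -0.405 and 0.227 for the rat means, -0.411 and 0.443 for core and -0.448 and 0.0832 for peri. With so few rats these values cannot exclude a factor shared by rats of 1 number. Core and peri of 1 rat were paired. Figures were drawn with matplotlib 3.10.9.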

Additional observations from a re-analysis of the deposited data

Results flagged for a closer look

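miR-221-3p was lower in core than in peri in all 3 sham rats (-0.03, -0.12 and -0.38 on the log2 scale) and all 3 PostC rats (-0.46, -0.14 and -0.34), and higher in core in all 3 tMCAO rats (0.10, 0.01 and 0.27). The core-minus-peri value of tMCAO rats differed from that of sham rats by 0.30 (adjusted p = 0.725 in limma), and that of PostC rats from that of tMCAO rats by -0.439 (adjusted p = 0.858), so neither difference passed. Under median scaling they were 1.29 (adjusted p = 0.12) and -1.02 (adjusted p = 0.611), beside medians of 0.239 and -0.192 over all tested miRNAs.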

How the results depend on the processing

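Of 318 counts of members past the threshold under the alternatives, 312 were 0, as reported. For tMCAO against sham in the rat means, quantile normalization gave 1 member (miR-222-5p), removal of the GC trend 1 (miR-222-5p) and median scaling 2 (miR-126a-3p and miR-221-3p). For tMCAO against sham in peri, median scaling gave 3 (miR-126a-3p, miR-221-3p and miR-222-3p), where it called 128 of all 532 miRNAs instead of 3. Median scaling moved the median of all tested miRNAs to -0.211 in the rat means and -0.423 in peri, and relative to that median miR-126a-3p was at -0.80 and -0.76 and miR-221-3p at -0.45 and -0.88. For PostC against sham in core, both regions in 1 fit gave 1 (miR-222-5p), and for PostC against tMCAO in core the deposited intensities gave 1 (miR-145-3p). Leaving out any 1 of the 9 rats gave 0 members in each of the 15 comparisons. With the rat number as a replicate block, 0 members passed, which changed no call. In the rat means, calls over all 532 miRNAs for tMCAO against sham ran from 8 without tMCAO replicate 2 to 130 under median scaling, beside 63. Single rats moved the other such counts too. For tMCAO against sham they ran from 0 (without sham replicate 1 or 3) to 27 in core, beside 18, and from 0 to 36 in peri, beside 3. For PostC against tMCAO they ran from 9 to 46 in the rat means, beside 30, from 3 to 21 in core, beside 12, and from 0 to 59 (without PostC replicate 3) in peri, beside 0. For PostC against sham in core they rose from 0 to at most 8, and to 32 with both regions in 1 fit. Without PostC replicate 2 they rose from 0 to 10 for PostC against sham in core minus peri and from 0 to 18 for core against peri in PostC rats. Of 251 log2 differences of the 12 member and comparison pairs with an unadjusted p under 0.05, 246 kept their direction and side of the threshold, 5 newly passed it and 0 reversed. That of miR-126a-3p in the tMCAO core ran from -1.21 to -0.71 (adjusted p 0.0668 to 0.44). Of 240 group levels, 75 moved by more than 1 SD between rats, and the levels are therefore read only within 1 scaling. In the deposited table miR-222-5p was at the floor on every core array, which left no difference to compare there. The fit of only the 2 groups compared does not apply to core against peri within 1 treatment.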
